A study of Homo sapiens with 6 samples.

Results

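FOS, FOSB, FOSL1, FOSL2, JUN, JUNB, JUND, ATF3, EGR1 and IER3 encode the FOS and JUN partners that make up the transcription factor AP-1, together with 3 genes of the same fast transcriptional response. The genes were taken by symbol from the table of counted reads. All 10 were found among 21631 symbols and all 10 passed the filter on low counts, which left 16910 genes. RNA had been sequenced from A-375, an established human melanoma line, in 3 libraries labelled with a control guide (sgCTRL) and 3 labelled with a guide against SEPHS2 (sgSEPHS2). Reads come from whole cultures, so fewer cells that express a gene and less of its RNA per cell cannot be told apart. No other treatment, allele or time point is named for either group. The labels do not say whether the edited cells were a single clone or a pool, nor whether the replicates were separate cultures, so the p-values measure the spread between these libraries, which may be technical.

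AP-1 is a dimer of basic leucine zipper proteins. A JUN protein pairs with another JUN or with a FOS protein and binds a short palindrome in enhancers and promoters, while FOS proteins do not bind DNA as dimers of their own kind. Many of these genes are immediate early genes: their mRNA appears within minutes of growth factor or stress signalling without new protein synthesis, driven by serum response factor, ETS factors and CREB family factors downstream of the ERK and JNK kinases, and most of it is degraded quickly. A-375 carries an activating BRAF mutation, so ERK signalling is switched on in these cells without added growth factor, and in melanoma AP-1 is known for its part in invasive, dedifferentiated states.

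In the libraries labelled knockout, 4 of the 10 genes fell, EGR1, JUNB, IER3 and JUN, and 2 rose, FOS and FOSL1. FOSB, FOSL2, JUND and ATF3 did not pass the test. EGR1 was 2.40-fold lower, JUNB 1.93-fold and IER3 1.61-fold. The changes in the other 3 were smaller: FOS was 1.37-fold higher, JUN was 1.22-fold lower, and the log2 fold change of FOSL1 was 0.27. These calls come from edgeR's quasi-likelihood test, with Benjamini-Hochberg adjustment across every tested gene and a threshold of 0.05, and every log2 fold change is labelled knockout over control. Under the same test 22.0% of all genes rose and 23.4% fell, 45.4% together, and 51.6% passed among those averaging 2 CPM or more (CPM is a gene's reads scaled to a common library size), which all 10 do. The share of 60% that passed in this small list is near that background. Falls of at least 1.5-fold were seen in 3 of the 10 genes and in 9.07% of all genes tested. The values of the groups did not overlap for 5 of the 10, again close to the 52.1% over all genes.

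Depth was 34606145 to 43405579 counted reads per library, and replicate 1 of the labelled knockout was the shallowest. SEPHS2 mRNA was not lower in the libraries labelled knockout. It stood at 158, 152 and 157 CPM in the control libraries and 170, 177 and 172 CPM in those labelled knockout (log2 fold change 0.15, edgeR adjusted p = 0.00401; with the trend in exon length and GC content removed 0.05, adjusted p = 0.255). Each direction below therefore rests on the labels. Of the melanocyte and melanoma markers, SOX10 had 19120 to 26588 reads in every library, while the pigment genes TYR, TYRP1 and DCT had at most 6, 10 and 6 reads in any library. Over all 10 melanoma markers the summed level was 1128 to 1196 CPM in the control group and 927 to 950 CPM in the other. CSPG4 fell from a mean of 485 to 311 CPM, SOX10 from 619 to 569 and MITF from 23.5 to 18.5. MLANA, PMEL, S100B and S100A1 were not called. Summed over 6 fibroblast markers the level was 73.2 to 74.8 and 48.3 to 54.5 CPM. This was mostly PDGFRB, which fell from a mean of 52.5 to 28.9 CPM. COL1A1 fell 1.52-fold, and the scarce COL1A2 fell 4.7-fold, from a mean of 0.534 to 0.115 CPM. LUM rose 1.70-fold and DCN, not called, was 1.80-fold higher. PDGFRA was not called. Over 4 of 5 leukocyte markers the sum was 3.25 to 4.11 and 6.45 to 7 CPM, nearly all LYZ. PTPRC had at most 12 reads in a library and CD68 at most 3. Over 3 of 6 keratinocyte markers it was 34.4 to 35.5 and 42.4 to 45.5 CPM, nearly all KRT10. The scarce KRT14 rose 4.41-fold, from a mean of 0.317 to 1.42 CPM. Over 4 endothelial markers the sum was 8.69 to 9.51 and 7.82 to 8.73 CPM. KRT5, KRT1, DSG3 and CD3E were not among the symbols in the counts. The part of these markers in the results was not tested.

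The proximal promoters of EGR1, JUNB, JUN and FOS are shown because these genes are classic targets of the same signals and yet 3 fell and 1 rose. Each window runs from 250 bases before to 50 bases after the RefSeq start site (GRCh38.p14): chr5:138465229-138465528 on the plus strand for EGR1, chr19:12791236-12791535 on the plus strand for JUNB, chr1:58783998-58784297 on the minus strand for JUN and chr14:75278578-75278877 on the plus strand for FOS. All are written 5′ to 3′ on the strand of the gene, and capitals mark motif matches on either strand.
EGR1: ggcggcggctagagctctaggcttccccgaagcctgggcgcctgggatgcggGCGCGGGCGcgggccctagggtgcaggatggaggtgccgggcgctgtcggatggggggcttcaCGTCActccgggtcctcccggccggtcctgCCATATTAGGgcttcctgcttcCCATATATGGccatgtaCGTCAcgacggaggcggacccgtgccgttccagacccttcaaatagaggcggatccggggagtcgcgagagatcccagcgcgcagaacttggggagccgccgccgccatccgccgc
JUNB: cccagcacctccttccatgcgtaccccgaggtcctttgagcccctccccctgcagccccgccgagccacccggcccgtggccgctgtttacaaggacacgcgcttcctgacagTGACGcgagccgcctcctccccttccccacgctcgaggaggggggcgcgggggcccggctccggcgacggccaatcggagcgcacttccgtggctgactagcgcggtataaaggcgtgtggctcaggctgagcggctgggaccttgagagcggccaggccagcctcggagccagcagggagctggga
JUN: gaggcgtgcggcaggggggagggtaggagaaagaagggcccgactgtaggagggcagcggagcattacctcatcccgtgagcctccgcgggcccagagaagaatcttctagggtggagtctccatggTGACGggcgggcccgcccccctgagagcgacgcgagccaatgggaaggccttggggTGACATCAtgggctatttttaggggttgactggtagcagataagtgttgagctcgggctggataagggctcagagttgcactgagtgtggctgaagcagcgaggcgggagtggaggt
FOS: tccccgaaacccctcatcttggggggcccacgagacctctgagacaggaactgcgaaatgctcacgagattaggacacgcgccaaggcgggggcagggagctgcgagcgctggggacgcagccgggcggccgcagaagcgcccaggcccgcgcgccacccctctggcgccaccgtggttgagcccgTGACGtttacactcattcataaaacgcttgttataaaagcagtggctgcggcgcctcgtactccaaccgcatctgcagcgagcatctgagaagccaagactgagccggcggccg

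Windows were found for 8 of the 10 genes, and FOSL1 and IER3 had none. The motifs searched on both strands were the AP-1 site TGANTCA (TRE), its longer relative TGACNTCA, which includes the cyclic AMP response element (CRE), the EGR site GCGNGGGCG, the CArG box bound by serum response factor, and the NF-kB site. EGR1 held 2 CArG boxes, CCATATTAGG starting at -105 and CCATATATGG at -83 from the start site. It was the only gene of the 8 with a match in these windows, and 1.3% of 34943 promoter windows of this length hold one. Bases more than 250 before the start site were not searched. The lack of a match in FOS or any other gene holds for this window only. EGR1 also held GCGCGGGCG at -198, an EGR site, as do 9.41% of windows. JUN held TGACATCA at -67 and JUND held TGACGTCA at -200. ATF3 had 2 windows, chr1:212565157-212565456 and chr1:212614768-212615067, both on the plus strand. The upstream window held TGACATCA at -123, and the other matched none of the motifs. Counting the upstream window of ATF3, 3 of 8 had the longer AP-1 or CRE type against 7.71% of windows. Whether either window is the promoter of the ATF3 transcript described further below was not tested. TGACTCA was found at 5 bases after the start of FOSL2 and in no other of the 8, against 7.72% of windows with a TRE, and no window of the 8 matched the NF-kB site, which 5.9% hold. The letters TGACG, the first 5 of the CRE and a part of its full match, were chosen after the windows had been seen. They occurred in 7 of 8 genes, all except ATF3, and in 24.5% of windows. The genes that fell (EGR1, JUNB, JUN) and the one that rose (FOS) all had them, EGR1 at -135 and -66 on the opposite strand, JUNB at -137, JUN at -123 and FOS at -64. A match is a description of the letters and not evidence of binding.

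The FOS family contributes the partner that has to pair with a JUN protein. FOS itself (chr14:75278828-75282230, GRCh38.p14 here and below), the prototype of the immediate early response, had 31.1, 23.4 and 23.7 CPM in the control libraries and 41.4, 38 and 27.9 CPM in those labelled knockout. The groups overlapped: replicate 1 of the control lay above replicate 3 of the labelled knockout. FOS rose by 0.45 ± 0.11 (SE) on the log2 scale under edgeR (adjusted p = 0.00193), whereas DESeq2 gave the same size without a call (adjusted p = 0.0913). Its coefficient of variation was 16.7% and 19.7% within the groups. That was above 97.7% and 97.4% of the 9239 genes in the same range of CPM, whose medians were 4.77% and 5.49%.

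FOSL1 (chr11:65892049-65900545), also called FRA1, is a FOS protein without the strong activation domain of FOS and is stabilised by ERK. It had 44.2, 40.9 and 42.7 CPM in the control group and 57.4, 48.8 and 48.6 CPM in the other. Every library labelled knockout lay above every control library, replicate 1 by the widest margin. The rise was 0.27 ± 0.06 (SE) on the log2 scale, at an edgeR adjusted p of 8.37e-04. FOSL2 (chr2:28392858-28417317), or FRA2, likewise lacks that domain. It had 49.8, 48.3 and 47.5 CPM against 49, 43.9 and 45.3 CPM. The groups overlapped, and the log2 fold change of -0.08 had a 95% interval of -0.18 to 0.03 (edgeR adjusted p = 0.243). FOSB (chr19:45467996-45475179) had 6.17, 5.42 and 6.41 CPM against 5.65, 5.32 and 4.66 CPM, with a log2 fold change of -0.21 and an interval of -0.46 to 0.04 (edgeR adjusted p = 0.178). FOSB is the least abundant of the 4, and its interval allows a fall larger than the rise of FOSL1.

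JUN proteins can pair with each other as well as with FOS proteins, and in each dimer both partners contact the DNA. JUNB (chr19:12791486-12793315), a weaker activator than JUN that can also restrain it, had 73.8, 71 and 70.2 CPM in the control libraries and 33.8, 39.7 and 37.8 CPM in those labelled knockout. No library of one group came near those of the other. JUNB fell by 0.95 ± 0.05 (SE) on the log2 scale, at an edgeR adjusted p of 1.04e-11. HOOK2 overlaps JUNB on the genome and the strand setting of the counting is not known. HOOK2 fell as well, by 0.34 on the log2 scale to a mean of 16.5 CPM against 21 (edgeR adjusted p = 0.00107).

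JUN (chr1:58780791-58784047), the founding member and a target of JNK, had 11, 9.93 and 10.7 CPM in the control libraries and 8.38, 8.36 and 9.2 CPM in the others, without overlap. The fall was -0.28 ± 0.09 (SE) on the log2 scale, at an edgeR adjusted p of 0.0132. The call was lost without control replicate 1 (log2 fold change -0.26, edgeR adjusted p = 0.0619) and without replicate 2 of the labelled knockout (log2 fold change -0.26, edgeR adjusted p = 0.0596). JUND (chr19:18279694-18281622), which is expressed in most cells without stimulation, had 37.8, 39.2 and 37.5 CPM against 35.9, 40 and 39.4 CPM. Its groups overlapped fully, with a log2 fold change of 0.01 and a 95% interval of -0.10 to 0.12 (edgeR adjusted p = 0.894). The 3 JUN genes thus differed in the size of their change.

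**Figure D1:**
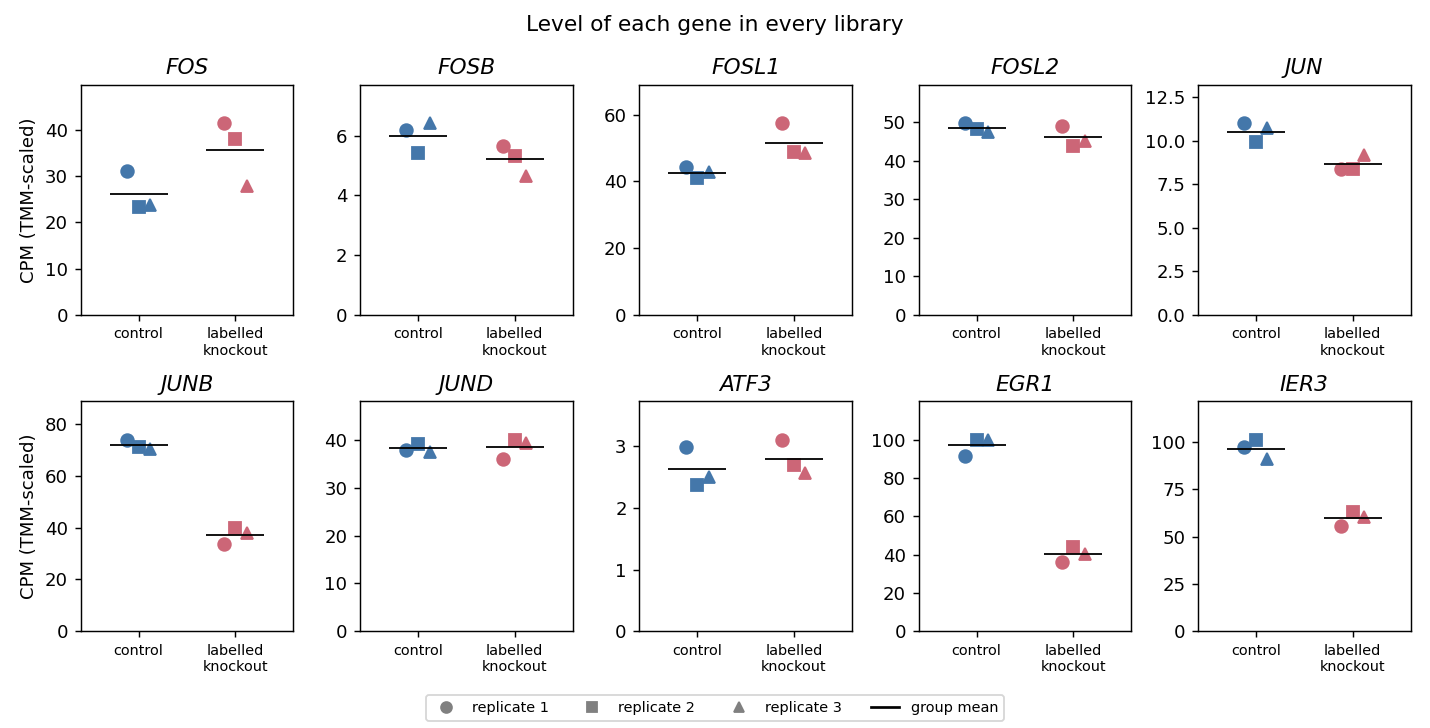
Level of each gene in CPM (TMM-scaled, linear axis from 0) in the 3 control libraries (blue) and the 3 labelled knockout (red), with a symbol per replicate and a line at the group mean. EGR1, JUNB and IER3 show the widest gaps between the groups, while FOS overlaps between 27.9 and 31.1 CPM.

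ATF3 (chr1:212565407-212620777), a stress-induced factor that pairs with JUN proteins, was the least abundant of the 10. It had 126, 98 and 100 reads, or 2.99, 2.37 and 2.5 CPM, in the control group, and 106, 116 and 104 reads, or 3.1, 2.69 and 2.57 CPM, in the other. The groups overlapped, and the log2 fold change of 0.08 had a wide 95% interval of -0.25 to 0.42 (edgeR adjusted p = 0.714); the interval includes moderate changes in either direction.

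EGR1 (chr5:138465479-138469303), a zinc finger factor and a direct reporter of ERK and serum response factor activity, showed the largest change of the 10. It had 91.6, 99.6 and 99.9 CPM in the control libraries and 36.1, 44.2 and 40.4 CPM in those labelled knockout. The highest labelled knockout library was below the lowest control library by more than the spread in either group. EGR1 fell by 1.27 ± 0.06 (SE) on the log2 scale, at an edgeR adjusted p of 3.87e-13. IER3 (chr6:30743199-30744547), a short-lived protein that affects survival and prolongs ERK phosphorylation, had 97.1, 101 and 90.9 CPM against 55.6, 62.8 and 60.5 CPM. Its groups were likewise apart, and the fall was -0.69 ± 0.05 (SE) on the log2 scale, at an edgeR adjusted p of 6.00e-10. The antisense gene IER3-AS1 had at most 7 reads in any library.

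**Figure D2:**
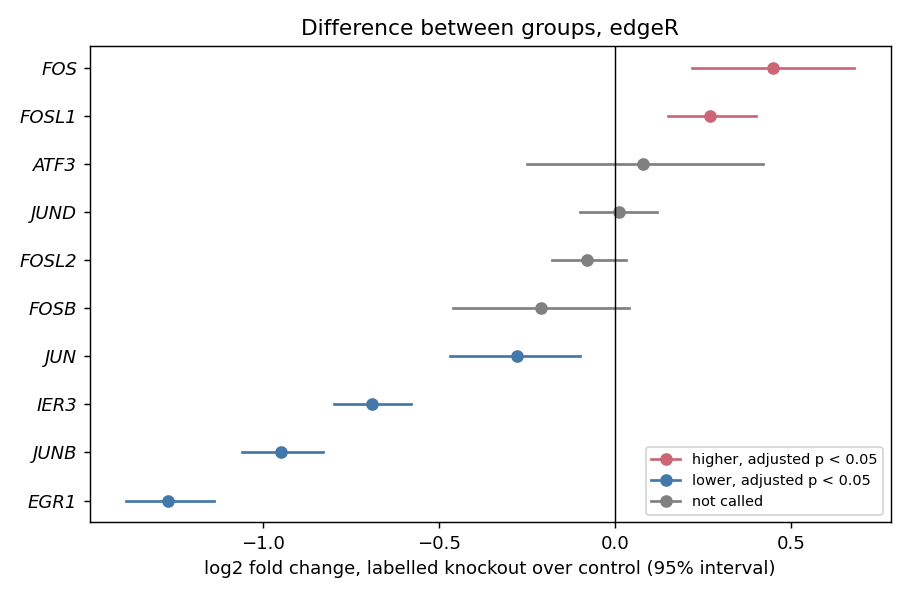
Log2 fold change of each gene, labelled knockout over control, with its 95% interval from edgeR; red and blue mark genes called higher and lower, grey those not called. The intervals of EGR1, JUNB and IER3 lie wholly below -0.5, and those of FOSB, FOSL2, JUND and ATF3 include 0.

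Within the labelled knockout group the genes did not move together. Replicate 1 held the highest value of the group for 5 genes, FOS, FOSB, FOSL1, FOSL2 and ATF3, and the lowest for 4 others, EGR1, JUNB, JUND and IER3. The genes that fell most were thus lowest, and the FOS family and ATF3 highest, in the same library, which is also the shallowest. In the control group replicate 1 held the highest value for 6 of the 10. With replicate 1 of either group or any other library left out, the calls of EGR1, JUNB, IER3, FOS and FOSL1 stood. The log2 fold change of FOS then ran from 0.34 to 0.61 and that of FOSL1 from 0.19 to 0.32.

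Levels of different genes were compared per kilobase of exon (RPKM, the CPM divided by the length in kilobases of the union of GENCODE 29 exons). In the control group the order was IER3 at 71 ± 3.69 RPKM (SD, n = 3 here and below), JUNB at 39.4 ± 1.05, EGR1 at 30.9 ± 1.49, FOSL1 at 22.6 ± 0.889 and JUND at 20.5 ± 0.487. FOS followed at 8.05 ± 1.34 RPKM, FOSL2 at 6.78 ± 0.161, JUN at 2.98 ± 0.154, FOSB at 1.08 ± 0.0927 and ATF3 at 0.649 ± 0.0803. No neighbours in this order overlapped. In the labelled knockout group IER3 remained first at 44 ± 2.7 RPKM, but FOSL1 came next at 27.3 ± 2.67 and then JUND at 20.6 ± 1.2. JUNB, at 20.4 ± 1.64 RPKM, overlapped JUND, and EGR1, at 12.8 ± 1.3, overlapped FOS at 11 ± 2.18. The last 4 places were unchanged, with FOSL2 at 6.44 ± 0.365, JUN at 2.44 ± 0.136, FOSB at 0.938 ± 0.0906 and ATF3 at 0.69 ± 0.0697 RPKM. These values depend on the length used. The exon union of FOS is 3238 bp and its principal GENCODE 29 transcript 2158 bp, while EGR1 has 3138 bp for both. FOS would stand higher with the shorter length. The order, and the family shares and ratio below, were not recomputed with it.

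The make-up of the JUN family mRNA differed accordingly. JUNB was 63.4%, 62% and 62.5% of the family's reads per kilobase in the control libraries and 46.2%, 47.8% and 46.6% in those labelled knockout. JUND was 31.7%, 33.5% and 32.6% against 47.9%, 47.1% and 47.5%. JUNB was the larger share in every control library, and JUND was slightly the larger in replicates 1 and 3 of the labelled knockout. JUN stayed the smallest part at 4.74% ± 0.238 and 5.63% ± 0.398 (SD, n = 3). The groups did not overlap for any of the 3 shares, and each had p = 0.1 in a two-sided exact permutation test, the smallest that 3 against 3 libraries can give.

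In the FOS family FOSL1 held the largest share in every library, 57% to 59.9% in the control group and 57.9% to 62% in the labelled knockout. FOS held 20.8% ± 2.19 and 24% ± 2.9 (SD, n = 3), with overlap (exact permutation p = 0.2). FOSL2 held 17.7% ± 0.756 and 14.1% ± 0.982, without overlap (exact permutation p = 0.1), and FOSB 2.81% ± 0.216 and 2.05% ± 0.0791 (exact permutation p = 0.1). Summed over the family, FOS genes had 41.1, 36.6 and 37.7 RPKM in the control libraries and 51.1, 44.7 and 41.5 RPKM in the others, barely apart. The JUN genes had 64, 62.9 and 61.7 RPKM against 40.2, 45.6 and 44.5 RPKM, clearly apart. The ratio of the FOS to the JUN family, chosen after these values had been seen, was 0.642, 0.582 and 0.611 in the control libraries and 1.27, 0.979 and 0.932 in those labelled knockout (exact permutation p = 0.1). These are mRNA levels and give no amounts of protein or of dimers.

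**Figure D3:**
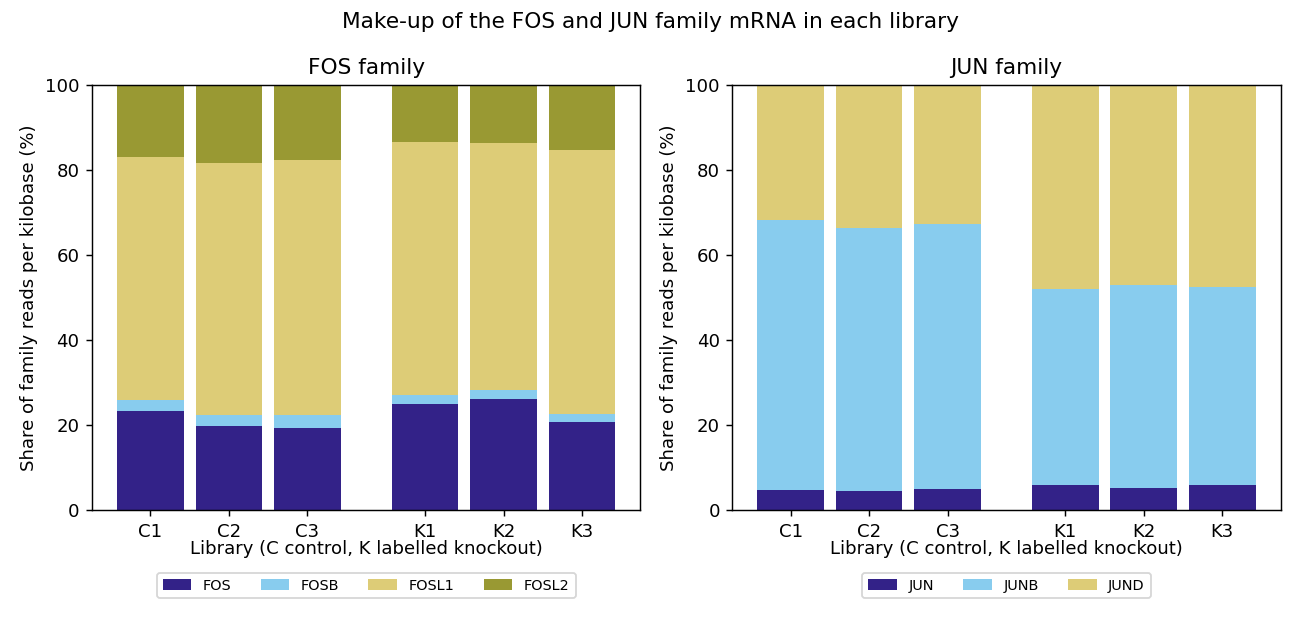
Share of each gene in the reads per kilobase of its family, in percent, stacked to 100 for each of the 3 control libraries (C1 to C3) and the 3 labelled knockout (K1 to K3). In the JUN family the JUNB band shrinks from 62% or more to under 48% as the JUND band widens, and in the FOS family FOSL1 is the largest band throughout.

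Most of the 10 genes are compact, a feature that the choice of genes did not use. JUN, JUNB and JUND have no intron in their principal GENCODE 29 transcript, EGR1 and IER3 have 1, and the other 5 have 3, against a median of 7 over 9539 tested genes with such a transcript. The span of the principal transcript was under 10000 bp in 8 of the 10, from 1356 bp for IER3 to 8307 bp for FOSL1, and in 26.4% of the tested genes. ATF3 spans 12108 bp, and FOSL2, at 24455 bp, is longer than the median of 23567 bp. ATTTA, the core of the AU-rich elements that mark mRNA for rapid decay, occurred 8.14 times per kilobase of the 3′ UTR in IER3, 6.2 in FOS and 4 in JUNB, against a median of 1.66. ATF3 had 2.45, JUN 2.33 and FOSL2 1.85 per kilobase. The other 4 lay below the median, FOSL1 at 1.5, JUND at 1.47, FOSB at 1.39 and EGR1 at 0.81. Whether these densities have a part in the differences between the groups was not tested.

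Other immediate early genes, taken as a list of 29 of which 28 were tested (EGR4 was not among the symbols), moved more often down than up. Of the 28, 16 fell, 5 rose and 7 did not pass, with a median log2 fold change of -0.26 beside 0.01 over all genes tested. Called were 75% of this list, and 45.4% of all genes tested (23.4% lower and 22.0% higher). GEM, a small GTPase that acts on calcium channels and the cytoskeleton, averaged 13.4 ± 0.764 against 5.72 ± 0.241 CPM (SD, n = 3), a fall of -1.22 on the log2 scale (edgeR adjusted p = 6.33e-10). NFIL3, a leucine zipper repressor, fell by 0.74 on the log2 scale and ZFP36L1, which promotes decay of AU-rich mRNA, by 0.45. PLK2, a kinase of the polo family, rose by 0.77 on the log2 scale, with 148 ± 3.25 and 252 ± 6 CPM (edgeR adjusted p = 2.13e-12). The other 4 that rose were IER5, KLF2, CCN1 and CCN2, named after their values had been seen, with log2 fold changes of 0.25, 0.51, 0.29 and 0.87. CCN1 and CCN2 are matricellular proteins also induced by serum response factor and YAP. The relatives of EGR1, likewise named afterwards, fell too. EGR3 averaged 14.3 ± 0.949 and 9.8 ± 0.648 CPM (edgeR adjusted p = 2.18e-05), and the scarce EGR2 1.85 ± 0.611 and 0.454 ± 0.0791 CPM (edgeR adjusted p = 1.19e-05).

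Of 12 tested genes for other dimer partners of AP-1, 3 fell, 1 rose and 8 did not pass (median log2 fold change -0.06). In this small list the share called was 33.3%, beside 45.4% over all genes tested. MAF, a large leucine zipper factor that binds an extended AP-1 site, was counted at 300, 317 and 322 reads in the control group against 2, 6 and 2 in the other. Its means were 7.62 ± 0.476 and 0.0824 ± 0.0495 CPM (SD, n = 3), a log2 difference of -6.44 (edgeR adjusted p = 1.29e-14). With so few reads in the labelled knockout the size is loose: it was -7.07 without replicate 2 of that group and -6.16 without replicate 3. The small MAF proteins MAFG and MAFK, which lack an activation domain, fell by 0.21 and 0.22 on the log2 scale. MAFK lost its call without control replicate 1 or 2 or without replicate 3 of the labelled knockout (edgeR adjusted p = 0.0503, 0.0728 and 0.0675), and with the trend in exon length and GC content removed (adjusted p = 0.18). BATF2 had 3.85 ± 0.227 and 4.88 ± 0.628 CPM (log2 fold change 0.34, edgeR adjusted p = 0.0413), and its call was lost under 9 of 15 alternatives, 4 of them single libraries left out (control replicate 1, 2 or 3, or replicate 3 of the labelled knockout; edgeR adjusted p = 0.127, 0.0871, 0.052 and 0.222). With replicate 1 of the labelled knockout left out, 3 partners rose in place of 1.

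Upstream of AP-1, 28 kinases and factors of the ERK, JNK, ERK5 and serum response routes were tested. Of these, 8 fell, 7 rose and 13 did not pass (median log2 fold change -0.02). The share called, 53.6%, was near the 51.6% among all genes averaging 2 CPM or more. RPS6KA3, the ERK-activated kinase RSK2 that phosphorylates FOS and CREB, fell by 0.51 on the log2 scale, with 564 ± 8.23 and 396 ± 5.99 CPM (SD, n = 3; edgeR adjusted p = 9.04e-10). Its relative RPS6KA1, or RSK1, rose by 0.27, with 60 ± 2.32 and 72.1 ± 1.95 CPM (edgeR adjusted p = 8.49e-05). MEF2C and MEF2D, which drive JUN transcription, fell by 0.99 and 0.39 on the log2 scale. SRF, which binds the CArG box, was named after its values had been seen. It fell by 0.24 on the log2 scale, with 36.9 ± 0.623 and 31.2 ± 0.709 CPM (edgeR adjusted p = 5.83e-04). Without control replicate 1, 4 genes rose in place of 7.

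Among 8 tested dual specificity phosphatases (DUSP8 was left out by the filter), which switch off ERK, JNK or p38, DUSP5 and DUSP6 fell, by 0.33 and 0.17 on the log2 scale, and DUSP7 rose by 0.17. The other 5 did not pass, so 37.5% of this small list were called, near the 45.4% over all genes tested. DUSP1 was counted with the other immediate early genes and is named after its values had been seen. It fell by 0.27 on the log2 scale (edgeR adjusted p = 0.0163). The call of DUSP7 was lost without control replicate 3 or replicate 1 of the labelled knockout (edgeR adjusted p = 0.105 and 0.0702) and with DESeq2 (adjusted p = 0.0605). Of 8 genes that govern the decay of AP-1 proteins and mRNAs, 3 rose and 5 did not pass (median log2 fold change 0.12). Again 37.5% were called, near the share over all genes tested. Those that rose were HNRNPD, which binds AU-rich mRNA, FBXW7, the ubiquitin ligase subunit for JUN, and KHSRP. Their log2 fold changes were 0.29, 0.25 and 0.12. ZFP36L1, which promotes decay of AU-rich mRNA and fell by 0.45, was counted with the other immediate early genes and not here. So was its relative ZFP36, named after its values had been seen and not called (edgeR adjusted p = 0.478). KHSRP lost its call without control replicate 2 or 3 or replicate 1 of the labelled knockout (edgeR adjusted p = 0.069, 0.0835 and 0.067), and without the last of these 1 gene of the list fell.

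Genes with known AP-1 sites in their promoters or enhancers went mostly down. MMP10 and EREG were left out by the filter. Of 26 tested, 14 fell, 6 rose and 6 did not pass, with a median log2 fold change of -0.48. Many of them also answer to other factors such as NF-kB. The collagenase MMP1, the textbook AP-1 target, was counted at 834, 986 and 999 reads in the control group against 31, 43 and 56 in the other (log2 fold change -4.37, edgeR adjusted p = 6.99e-16). CCL2, CXCL8 and TNC fell by 6.07, 1.48 and 1.31 on the log2 scale. Among those that rose were SPP1, AXL, MT2A, HBEGF and ITGA2, named after their values had been seen, with log2 fold changes of 1.2, 0.42, 0.40, 0.40 and 0.34. AXL, a receptor kinase and a known AP-1 target in invasive tumour cells, had 118 ± 1.04 and 158 ± 3.85 CPM (SD, n = 3; edgeR adjusted p = 2.98e-08). CCND1, which drives entry into the cell cycle, and the adhesion receptor CD44, also named afterwards, had log2 fold changes of -0.06 and 0.02 and were not called (edgeR adjusted p = 0.266 and 0.731).

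**Figure D4:**
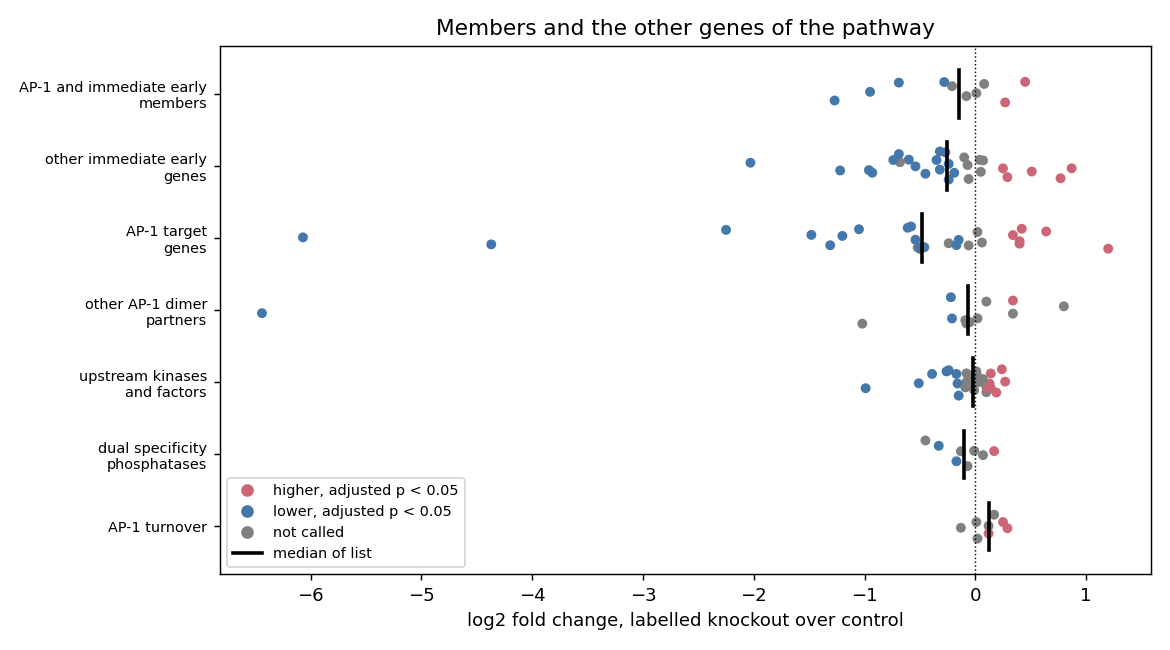
Log2 fold change, labelled knockout over control, of every tested gene in each list, with the list median as a black bar; red and blue mark genes called higher and lower by edgeR, grey those not called. The medians of the 10 genes (-0.14), the other immediate early genes (-0.26) and the AP-1 targets (-0.48) lie below 0, and the isolated points on the left are MAF, CCL2 and MMP1.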

How the data were processed

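The authors deposited raw counts of reads for each symbol in 6 libraries, with no normalization. The submitters' processing notes list HISAT2 2.2.1 and featureCounts 2.0.6 among the tools, with build GRCh38. Which annotation, strand setting and treatment of multi-mapping reads applied is not given in the sources used here. None of the 10 genes shared its counts with another symbol, and replicates differed by more than sampling noise (chi-square per degree of freedom 4.55 to 7.06).

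Groups and replicate numbers came from the sample titles. The test was that of edgeR 4.0.16 under R 4.3.3 (TMM factors, default expression filter, quasi-likelihood test, two-sided), adjusted over 16910 genes. CPM values use TMM-scaled library sizes. Shares and ratios were compared with exact permutation tests in scipy 1.17.1. Lengths came from GENCODE 29, positions and promoters from RefSeq on GRCh38.p14.

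The genes and the lists were chosen with earlier results of these data known, so they are no independent evidence. Named from each list were up to 4 genes by smallest adjusted p among those called with at least 1 CPM. Alternatives tried were upper-quartile or RLE factors, dropping the filter, 1 CPM in 3 libraries, DESeq2 1.42.0, limma-voom (limma 3.58.1), the replicate number as a block, each library left out, and an adjusted p under 0.01. A fit with the length and GC trend removed was added after the data had been seen. Some genes of the lists are not reported here by name. Plots used matplotlib 3.10.9.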

Additional observations from a re-analysis of the deposited data

How the results depend on the processing

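EGR1, JUNB, IER3 and FOSL1 kept direction and call under all 15 alternatives, with log2 fold changes of -1.34 to -1.20, -1 to -0.89, -0.77 to -0.64 and 0.19 to 0.32. FOS lost its call with DESeq2, which called 1 of the 10 genes higher. JUN lost its call in the 2 fits named above and at an adjusted p under 0.01. JUND, not called in any fit, changed sign with 1 CPM required in 3 libraries (log2 fold change -0.00033, adjusted p = 0.996) and without control replicate 3 (-0.01), replicate 2 (-0.02) or replicate 3 (-0.01) of the labelled knockout, within -0.02 to 0.06 over the libraries left out. With each library left out in turn, 2 of the 10 were higher and 3 to 4 lower.

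Dimer partners called higher numbered 0 with 1 CPM required, DESeq2, limma-voom or an adjusted p under 0.01, and 0 to 3 with a library left out. At the stricter threshold 3 upstream genes and 0 phosphatases were higher, and DESeq2 called 0 phosphatases higher. With the length and GC trend removed 2 phosphatases were higher and 4 lower. With a library left out, 4 to 6 upstream genes and 0 to 1 phosphatases were higher, and 0 to 1 decay genes lower. The cause of these changes was not tested. From raw reads not divided by length, the differences in family share (labelled knockout minus control) were -1.12 percentage points for FOSB, -6.11 for FOSL2, 4.58 for FOS, 2.64 for FOSL1, 1.54 for JUN, -15.5 for JUNB and 13.9 for JUND, against -0.758, -3.53, 3.18, 1.11, 0.897, -15.8 and 14.9, and the difference in the FOS to JUN ratio was 0.635 against 0.449. Leaving out a library moved the difference in share between 2.06 and 4.81 points for FOS (lowest without replicate 2 and highest without replicate 3 of the labelled knockout) and between 0.017 and 2.08 for FOSL1 (lowest without replicate 3 and highest without replicate 2).

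The replicate numbers did not pair the libraries: deviations from the group means correlated at 0.01, -0.093 and -0.254 for replicates 1, 2 and 3, and no control library correlated best with its own number. With the replicate number as a block, 2 of the 10 genes were higher and 4 lower, as without it, and 2 dimer partners were higher in place of 1. Depth limits ATF3 and FOSB most, with at most 126 and 260 reads in a library.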
